A study of Mus musculus with 116 samples.

Results

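Nucleoporins and nuclear transport receptors were followed by their RNA levels in mouse eggs and embryos before implantation. Members were all gene symbols in the deposited tables named Nup or Nupl with a number, Kpna with a number, Kpnb1, Ipo or Tnpo with a number, or Xpo with a number or t. The rule found 44 genes among 24028 symbols shared by all 4 tables, 21 nucleoporins and 23 transport receptors. No row of these genes was repeated. The series studied RNA polymerase II and the start of embryonic transcription, and 7 of its 116 samples were RNA libraries with values used here. All animals were wild-type. Females were 8 weeks old and had received PMSG and hCG, hormones that induce ovulation, and the embryos came from C57BL/6N females mated with PWK males. The 5 total RNA libraries, 1 for each stage or treatment, were made from about 100 eggs or embryos each after removal of ribosomal RNA. The eggs at metaphase of the second meiotic division (MII) were collected 13 h after hCG, zygotes at the late pronuclear stage PN5 at 30 h, and early 2-cell embryos at 36 h. For the late 2-cell stage, zygotes taken at 23 h were kept for 14 h with 60 uM DRB, an inhibitor of elongation by RNA polymerase II, or with 0.1% DMSO as the control, and were then cultured for 12 h without it. The DRB library bears the label mTBE and is called DRB-released here. The other 2 libraries are replicates of the inner cell mass (ICM) at 98 h, made from polyadenylated RNA with Smart-seq2.

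The nuclear pore is a ring of nucleoporins set in the nuclear envelope, with a scaffold, a central channel lined by phenylalanine-glycine repeats, filaments on the cytoplasmic face and a basket on the nuclear face. Importin alpha proteins bind the classical nuclear localization signal of a cargo and hand it to importin beta (Kpnb1), which carries the complex through the channel. Other members of the importin beta family bind cargo directly, and exportins carry cargo out. The GTPase Ran sets the direction of travel. Kpna7 encodes an importin alpha known from oocytes and early embryos, and it is the closest relative of Kpna2 in the family.

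All values are FPKM, fragments scaled by transcript length and library size, as the authors deposited them, and genes are compared in level on this scale only. With 1 library per stage no difference between stages or treatments has a replicate check, and no test could be made. A gene was counted as higher or lower when its log2(FPKM + 1) differed by at least 1, about 2-fold, and as measured when it reached 1 FPKM in either library. A single table holds PN5 and the late 2-cell pair, another holds the ICM pair, and MII and early 2-cell each have their own, so levels set across tables were normalized separately. In bulk RNA, fewer cells of a type cannot be told apart from less RNA per cell. The oocyte markers Zp3, Gdf9, Bmp15 and Mos summed to 450 to 2341 FPKM in the total RNA libraries and to 10.8 and 29.6 in the ICM. This sum was 1062 in the late 2-cell control and 1676 in DRB-released embryos, where only Bmp15 was higher (766 and 1466). The 2-cell markers Zfp352, Zscan4c, Zscan4d, Dux and Tdpoz4 summed to 164 in the control and 103 in DRB-released embryos, where only Dux was higher (0.991 and 1.68). Whether these libraries differ in developmental progress was not tested. The 6 cumulus and granulosa markers summed to 0.658 to 19.3 FPKM over all libraries, with the highest sum in the late 2-cell control, where Amhr2 was at 16.7, and the 4 sperm markers to 0.765 to 6.54. Of the latter Prm1 was listed at 0 in all libraries, Prm2 was highest in PN5 (5.28) and Tnp1 in DRB-released embryos (4.98). Of the 3 ICM markers, Nanog was at 105 and 133 FPKM in the ICM libraries and at most at 3.51 elsewhere. Pou5f1 was at 280 and 163, against 252 in early 2-cell embryos, and Sox2 at 5.25 and 2.85, below the late 2-cell control (10.1) and DRB-released embryos (17.3). The ICM libraries also held the trophectoderm markers Krt18 at 1116 and 991 and Cdx2 at 31.4 and 22.1. The part of these outer cells in the ICM values was not tested.

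Kpna7 was abundant in the egg and zygote, lower at the late 2-cell stage and near 0 in the ICM. Its level was 163 FPKM in MII, 173 in PN5, 108 in early 2-cell embryos, 41.0 in the late 2-cell control and 38.9 in DRB-released embryos. In the ICM libraries it was listed at 0 and at 0.362 FPKM. The 3 libraries up to the early 2-cell stage were high, both late 2-cell libraries lay near each other, and the ICM libraries were lowest. Among the 44 members Kpna7 ranked 2nd in MII, 3rd in PN5 and in early 2-cell embryos, 17th in the late 2-cell control, and 44th and 43rd in the ICM. Within the shared table it was lower in the late 2-cell control than in PN5, by -2.05 in log2(FPKM + 1). It differed by -0.59 between early 2-cell and MII, and by 0.08 between PN5 and MII, across separately normalized tables. The DRB-released library differed from the control by -0.07.

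**Figure D1:**
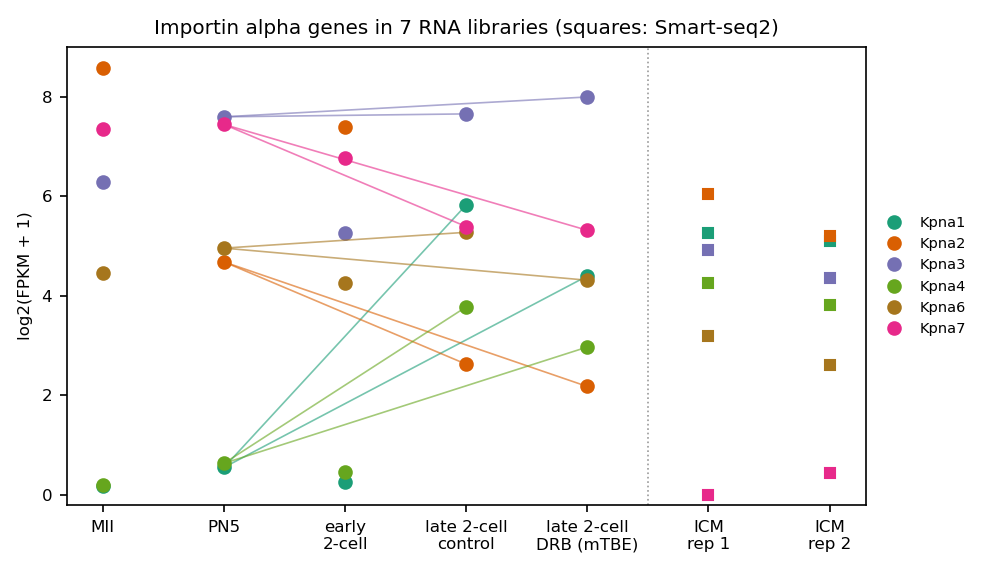
Level of the 6 importin alpha genes, as log2(FPKM + 1), in the 5 total RNA libraries (circles) and 2 ICM Smart-seq2 libraries (squares). Each point is 1 library and lines join only libraries of 1 table. Kpna7 lies at 163 FPKM in MII and at 0 and 0.362 in the ICM, while Kpna1 and Kpna4 lie below 1 FPKM until the late 2-cell libraries.

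Promoters of 4 receptor genes are shown: those of Kpna7 and Kpna2, both importin alpha genes, and those of Tnpo3 and Ipo4 of the importin beta family. Kpna7 and Kpna2 are the importin alpha genes with the highest levels in MII, Tnpo3 is a gene first above 5 FPKM in the late 2-cell libraries, and Ipo4 has the largest difference after DRB. They were chosen after their values were seen. Each sequence is the 250 bases before the transcription start given by RefSeq, assembly GRCm38.p6, 5′ to 3′ on the gene's strand, with CG dinucleotides in capitals. All 4 lie on the minus strand, Kpna7 at chr5:145009637-145009886, Kpna2 at chr11:106999526-106999775, Tnpo3 at chr6:29609850-29610099 and Ipo4 at chr14:55635685-55635934.
Kpna7: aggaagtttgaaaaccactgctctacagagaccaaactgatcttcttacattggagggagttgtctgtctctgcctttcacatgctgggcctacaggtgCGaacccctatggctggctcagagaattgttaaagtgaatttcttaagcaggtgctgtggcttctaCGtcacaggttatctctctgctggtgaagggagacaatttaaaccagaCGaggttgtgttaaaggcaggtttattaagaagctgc
Kpna2: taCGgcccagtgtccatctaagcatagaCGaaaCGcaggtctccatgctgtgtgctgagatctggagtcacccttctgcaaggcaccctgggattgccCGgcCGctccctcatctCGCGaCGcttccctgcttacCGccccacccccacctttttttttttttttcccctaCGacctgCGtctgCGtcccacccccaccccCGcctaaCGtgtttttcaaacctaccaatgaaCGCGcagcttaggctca
Tnpo3: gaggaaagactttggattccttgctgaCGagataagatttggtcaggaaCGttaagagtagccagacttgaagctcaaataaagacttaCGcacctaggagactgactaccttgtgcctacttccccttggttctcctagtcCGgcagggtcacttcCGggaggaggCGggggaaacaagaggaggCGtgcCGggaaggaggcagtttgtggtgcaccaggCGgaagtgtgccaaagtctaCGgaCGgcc
Ipo4: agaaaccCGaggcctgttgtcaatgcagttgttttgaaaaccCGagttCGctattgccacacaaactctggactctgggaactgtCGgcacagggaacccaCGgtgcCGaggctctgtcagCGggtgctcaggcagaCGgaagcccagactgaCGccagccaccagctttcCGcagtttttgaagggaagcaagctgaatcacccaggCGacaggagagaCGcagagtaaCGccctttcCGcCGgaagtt

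The Kpna7 promoter holds 3 CG dinucleotides, against 16 for Kpna2, 11 for Tnpo3 and 15 for Ipo4. The table lists 43 promoters for 36 of the members, with a median of 22 CG in 250 bases, against a median of 10 over 21263 promoters of protein-coding genes. Among members only Kpna7 has 3 or fewer CG in every listed promoter. Ipo5 (0 and 42) and Nup93 (3 and 18) each have a second promoter with more. Of the promoters of protein-coding genes 29.0% have 3 or fewer, so such a promoter is common in the genome. The letters CANNTG, the E-box core, which reads the same on both strands, occur 3 times in the Kpna7 promoter and 0 times in that of Kpna2. At least 3 such matches occur in 10.1% of promoters of protein-coding genes and in 2 of the 43 of members. Any match occurs in 62.8% of promoters of protein-coding genes and in 34.9% of those of members. The letters TATAAA and CCAAT, counted on either strand, do not set Kpna7 and Kpna2 apart. TATAAA occurs 0 times in both promoters and CCAAT 1 time in both. Promoters of Kpna1, Kpna3, Kpna6, Nup35, Nup43, Nup85, Xpo4 and Xpo7 were not analysed here.

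Kpna2, a general importin alpha of dividing cells, had the highest level of all members in MII and in early 2-cell embryos, but not in the libraries of the shared table. It was at 379 FPKM in MII, 24.7 in PN5, 167 in early 2-cell embryos, 5.18 in the late 2-cell control, 3.53 in DRB-released embryos, and 65.3 and 35.6 in the ICM. PN5 thus lay far below the stages before and after it, which come from other tables, with a difference of -3.89 from MII in log2(FPKM + 1). Within the shared table Kpna2 differed by -2.05 between the late 2-cell control and PN5. Of 5309 genes at 5 FPKM or more in both MII and early 2-cell embryos, 160 (3.01%) were listed in PN5 at least 4-fold below both levels, and Kpna2 was the only member among them. RefSeq names a pseudogene, Kpna2-ps, and no other member has a pseudogene named after it. Among the 188 of these genes with a pseudogene so named, 36 (19.1%) had this dip, against 124 of 5121 (2.42%) of the rest. The dip rule was modelled on the values of Kpna2, which is itself among the 36. Genes with and without such a pseudogene were not matched in level. The part of pseudogene reads in the Kpna2 values was not tested. Stage and table cannot be told apart for Kpna2 between PN5 and its neighbours.

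Kpna3 had the highest importin alpha level in PN5 and in both late 2-cell libraries. It was at 76.8 FPKM in MII, 193 in PN5, 37.3 in early 2-cell embryos, 201 in the late 2-cell control and 254 in DRB-released embryos, and at 24.3 ± 6.85 (SD, n = 2) in the ICM. The control and PN5 differed by 0.06 in log2(FPKM + 1). The product of Kpna6, like other importin alphas, carries classical cargo. Over the total RNA libraries Kpna6 had the smallest ratio of highest to lowest level of the 6 importin alpha genes. Kpna6 was at 21.1 FPKM in MII, 30.1 in PN5, 18.3 in early 2-cell embryos, 37.8 in the control, 18.9 in DRB-released embryos and 6.62 ± 2.15 (SD, n = 2) in the ICM.

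Kpna1 and Kpna4 were below 1 FPKM until the late 2-cell stage. Kpna1 was at 0.134 FPKM in MII, 0.470 in PN5, 0.192 in early 2-cell embryos, 55.9 in the late 2-cell control and 20.1 in DRB-released embryos, with 35.4 ± 3.01 (SD, n = 2) in the ICM. Its difference between the control and PN5, 5.27 in log2(FPKM + 1), was the largest of all members. Kpna4 was at 0.151, 0.556 and 0.373 FPKM in MII, PN5 and early 2-cell embryos, 12.7 in the control, 6.86 in DRB-released embryos and 15.6 ± 3.45 (SD, n = 2) in the ICM. Together with the exportin gene Xpot they were the 3 members below 1 FPKM in MII, PN5 and early 2-cell libraries, and all 3 passed 5 FPKM in the control. Of all 12882 symbols below 1 FPKM in those 3 libraries, 654 reached 5 FPKM in the control.

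Taken as shares of the summed importin alpha FPKM, which need no scaling between tables, Kpna7 made up 25.5% in MII, 41.1% in PN5, 32.6% in early 2-cell embryos, 11.6% in the control and 11.3% in DRB-released embryos. In the ICM libraries its share was 0% and 0.339%. Kpna2 made up 59.2% in MII and 50.4% in early 2-cell embryos, against 5.85% in PN5. Without Kpna2 in the sum, an alternative chosen after seeing the data, Kpna7 made up 62.4% in MII, 43.6% in PN5, 65.8% in early 2-cell embryos and 11.8% in the control. The share of Kpna7 was thus lower in both late 2-cell libraries than in the 3 earlier ones with or without Kpna2, whereas its order among the earlier stages depended on Kpna2. Kpna3 made up 56.8% in the control and 74.2% in DRB-released embryos. Kpna1 made up 15.8% and 5.87% there.

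**Figure D2:**
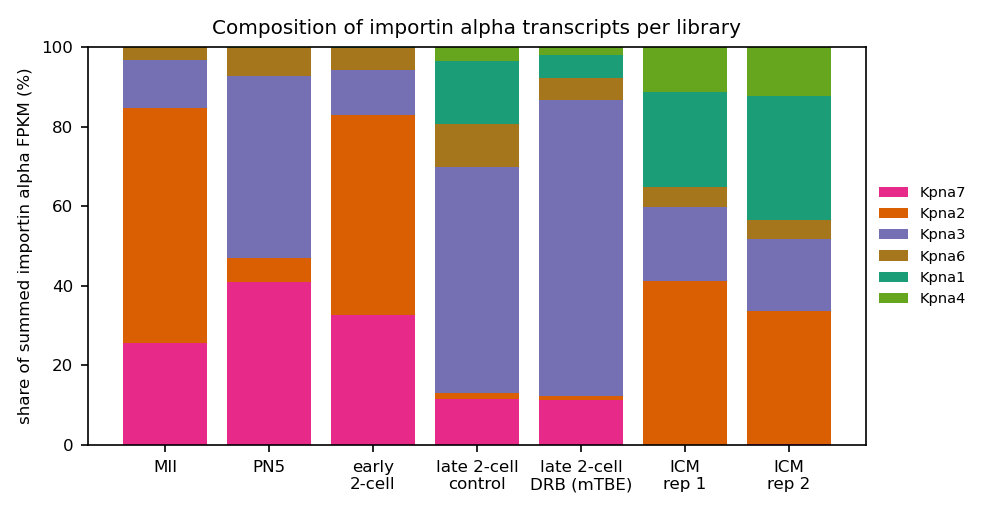
Share of each importin alpha gene in the summed FPKM of the 6 genes, in percent, for each of the 7 libraries (1 bar per library). Kpna7 takes 25.5 to 41.1% up to the early 2-cell stage, about 11% in both late 2-cell libraries and at most 0.339% in the ICM, where Kpna2 and Kpna1 take the largest shares.

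Kpnb1, the partner that importin alpha needs for import, had a narrow range over the libraries. It was at 62.9 FPKM in MII, 60.6 in PN5, 29.2 in early 2-cell embryos, 52.7 in the control and 36.2 in DRB-released embryos, with 45.7 ± 5.93 (SD, n = 2) in the ICM. The early 2-cell library was the lowest. Its difference from MII, -1.08 in log2(FPKM + 1), was -0.53 after the median ratio of genes that reached 5 FPKM in both was set to 0. Kpna7 stood above Kpnb1 in MII, PN5 and early 2-cell libraries and below it in the late 2-cell control and both ICM libraries. In DRB-released embryos the levels were close, 38.9 FPKM for Kpna7 and 36.2 for Kpnb1.

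Within the importin beta family Ipo8 and Tnpo1 had the highest levels in the 5 total RNA libraries. Ipo8, an importin beta family member, was at 138 FPKM in MII, 240 in PN5, 86.7 in early 2-cell embryos, 217 in the control and 276 in DRB-released embryos, but at 6.21 ± 1.43 (SD, n = 2) in the ICM. It made up 36.5% of the summed FPKM of the 11 members of this family in MII, 37.1% in the control and 52.7% in DRB-released embryos. In the ICM libraries this share was 2.70 ± 0.0162% (SD, n = 2). Tnpo1, the transportin that imports RNA-binding proteins, was at 108 FPKM in MII, 164 in PN5, 61.5 in early 2-cell embryos, 86.2 in the control, 94.9 in DRB-released embryos and 9.75 ± 3.36 (SD, n = 2) in the ICM. Both were thus high in every total RNA library and low in both ICM libraries, which were made with another protocol. Stage and protocol cannot be told apart there.

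Other importin beta members were low in the egg and higher in the late 2-cell control. Tnpo3, which imports SR splicing factors, was at 1.01 FPKM in MII, 1.05 in PN5, 0.750 in early 2-cell embryos, 43.5 in the control, 15.8 in DRB-released embryos and 21.1 ± 5.18 (SD, n = 2) in the ICM. Ipo7 was at 4.17, 6.02, 2.15, 43.1 and 18.8 FPKM in the same order of total RNA libraries and at 33.9 ± 15.0 (SD, n = 2) in the ICM. Ipo4, known for the import of histones and ribosomal proteins, was at 7.84, 6.94, 6.02, 16.7 and 2.39 FPKM, and at 23.2 ± 3.26 (SD, n = 2) in the ICM. The DRB-released library was the lowest of all 7 for Ipo4, whereas for Tnpo3 and Ipo7 it lay between PN5 and the control. Ipo5 was at 15.7, 28.1, 17.1, 63.5 and 33.3 FPKM and had the highest ICM level of the family, 55.7 ± 7.63 (SD, n = 2).

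Among exportins, Xpo1, the receptor for leucine-rich export signals, had the highest level in the late 2-cell libraries. It was at 20.5 FPKM in MII, 35.6 in PN5, 6.27 in early 2-cell embryos, 75.2 in the control, 58.7 in DRB-released embryos and 39.0 ± 8.02 (SD, n = 2) in the ICM. Its share of the summed exportin FPKM was 23.6% in MII, 13.8% in early 2-cell embryos, 39.5% in the control and 44.7 ± 1.85% (SD, n = 2) in the ICM. Xpo6, the exportin of actin and profilin, was at 16.5, 19.8, 14.4, 47.6 and 39.2 FPKM over the total RNA libraries, and Xpo4 at 22.0, 32.2, 8.00, 27.3 and 29.7. Xpot, which exports tRNA, was at 0.0105, 0.0453, 0.180, 7.44 and 4.16 FPKM and at 16.4 ± 5.70 (SD, n = 2) in the ICM. Xpo5, which exports microRNA precursors, went the other way between PN5 (22.3) and the control (6.61), with a difference of -1.62 in log2(FPKM + 1).

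**Figure D3:**
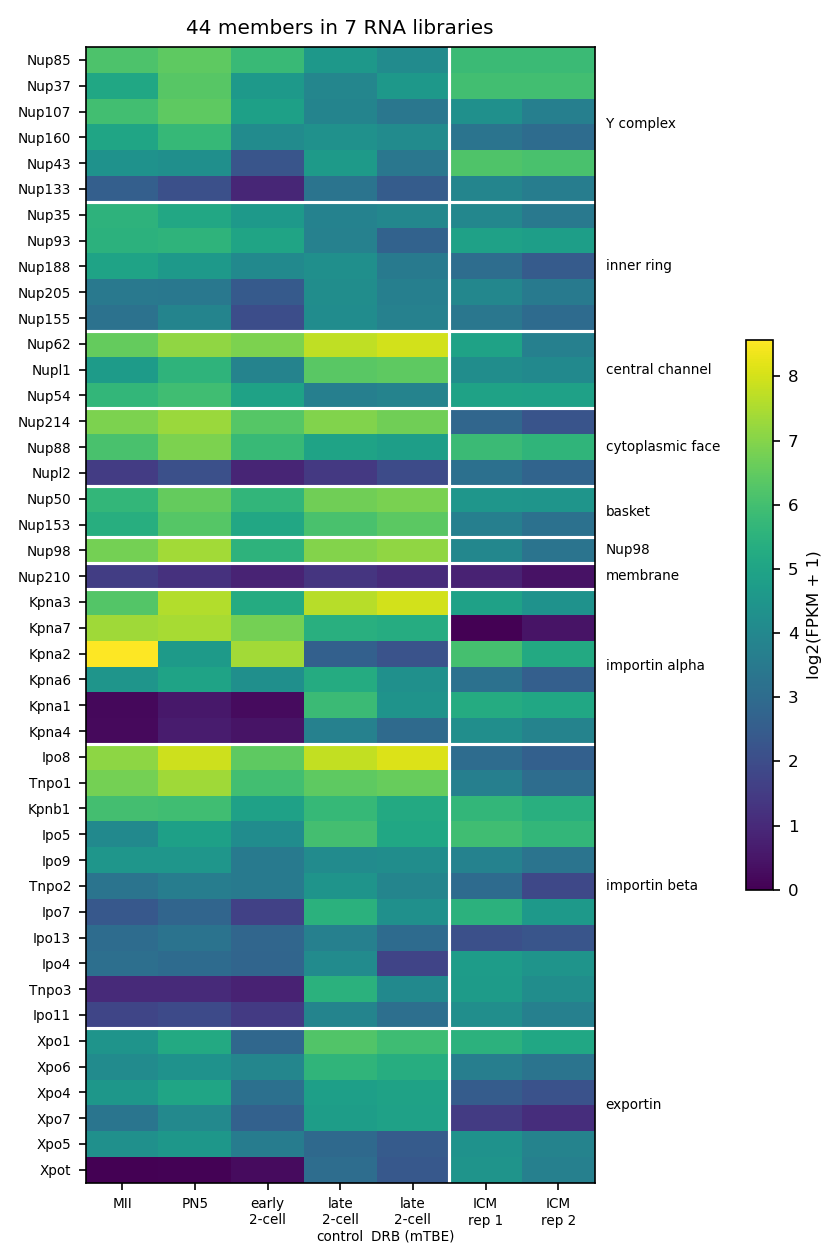
Level of each of the 44 members (rows, grouped by role) in each of the 7 libraries (columns), as log2(FPKM + 1) by colour. The importin alpha block shows Kpna7 and Kpna2 bright in MII and early 2-cell embryos, and Kpna1 and Kpna4 dark until the late 2-cell libraries. In the importin beta block, Ipo8 and Tnpo1 are bright in the total RNA libraries and darker in the ICM.

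Nucleoporins were present in the egg across the parts of the pore. All 21 reached 1 FPKM in MII, and 18 did in early 2-cell embryos. Nup133 (0.880), Nupl2 (0.846) and Nup210 (0.821) were just below it there. Over all symbols 10130 reached it in MII and 9511 in early 2-cell embryos, and these libraries were normalized separately. Nup62, a channel nucleoporin, was at 92.2 FPKM in MII, 142 in PN5, 117 in early 2-cell embryos, 215 in the control, 249 in DRB-released embryos and 21.1 ± 12.4 (SD, n = 2) in the ICM. Its channel partner Nupl1 (Nup58) was at 25.2, 47.0, 13.1, 82.4 and 86.4 FPKM over the total RNA libraries. Nup54, the third of this subcomplex, was instead at 49.7, 59.7, 29.6, 12.0 and 13.4. The 3 partners thus had different orders over the stages: among total RNA libraries the late 2-cell ones were the highest for Nup62 and Nupl1 and the lowest for Nup54.

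Nup98, which lines the channel and acts on both faces, was at 108 FPKM in MII, 164 in PN5, 46.0 in early 2-cell embryos, 124 in the control, 141 in DRB-released embryos and 11.8 ± 4.18 (SD, n = 2) in the ICM. Nup214 of the cytoplasmic face was at 116, 153, 78.6, 122 and 103 FPKM, and its partner Nup88 at 67.3, 117, 53.8, 30.3 and 27.0. In the ICM the order of these partners was turned, with Nup214 at 4.86 ± 1.65 and Nup88 at 52.3 ± 5.97 (SD, n = 2). Nupl2 was at most at 3.29 FPKM in the total RNA libraries. On the nuclear face, Nup50 was at 50.5, 91.9, 49.3, 105 and 113 FPKM and the basket protein gene Nup153 at 40.2, 78.8, 33.9, 67.4 and 84.3. The membrane nucleoporin Nup210 did not exceed 1.93 FPKM in any library.

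Scaffold nucleoporins of the Y complex, which shapes the outer rings of the pore, were mostly high in PN5 and low in the late 2-cell libraries. Nup85 was at 71.4 FPKM in MII, 86.0 in PN5, 55.3 in early 2-cell embryos, 22.8 in the control, 16.6 in DRB-released embryos and 56.2 ± 0.0304 (SD, n = 2) in the ICM. Nup107 was at 62.2, 85.3, 28.2, 13.5 and 9.64 FPKM and Nup37 at 33.3, 79.3, 24.0, 14.3 and 22.8, with 15.4 ± 4.72 and 62.1 ± 0.340 (SD, n = 2) in the ICM. Nup43 and Nup133 of the same complex had another order, with the lowest levels in early 2-cell embryos. Nup43 was at 19.8, 18.1, 3.76, 24.2 and 9.48 FPKM and at 70.5 ± 3.36 (SD, n = 2) in the ICM, and Nup133 at 5.09, 3.22, 0.880, 8.79 and 4.58. In the inner ring Nup93 was at 44.6, 46.2, 31.0, 12.7 and 5.43 FPKM, Nup35 at 46.0, 34.3, 23.2, 13.1 and 14.6, and Nup188 at 30.6, 23.9, 15.9, 18.4 and 10.2.

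The step from PN5 to the late 2-cell control, within 1 table, had more nucleoporins lower than higher and more receptors higher than lower. Of 44 members, all measured, 11 were higher and 11 lower in the control. Over all 13022 genes 30.5% were higher and 17.0% lower. Over genes that reached 5 FPKM in both libraries the median log2 ratio was -0.13. With it set to 0, the members' counts were again 11 and 11, and 33.2% and 15.0% of all genes. Of the 21 nucleoporins 1 (Nup133) was higher and 8 were lower, with a median difference of -0.36. Of the 23 receptors 10 were higher and 3 (Kpna2, Kpna7 and Xpo5) lower, with a median of 0.75, against 0.28 over all measured genes. No test of the difference between these groups was made. The nucleoporins lower in the control were Nup107 (-2.58), Nup37 (-2.39), Nup54 (-2.23), Nup88 (-1.92), Nup85 (-1.87), Nup93 (-1.78), Nup160 (-1.38) and Nup35 (-1.33). Next to Kpna1, the receptors furthest above PN5 were Tnpo3 (4.44), Kpna4 (3.14), Xpot (3.01), Ipo7 (2.65) and Ipo11 (1.94). The control embryos had been in DMSO and culture, and no such step is recorded for PN5, so stage and culture cannot be told apart.

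**Figure D4:**
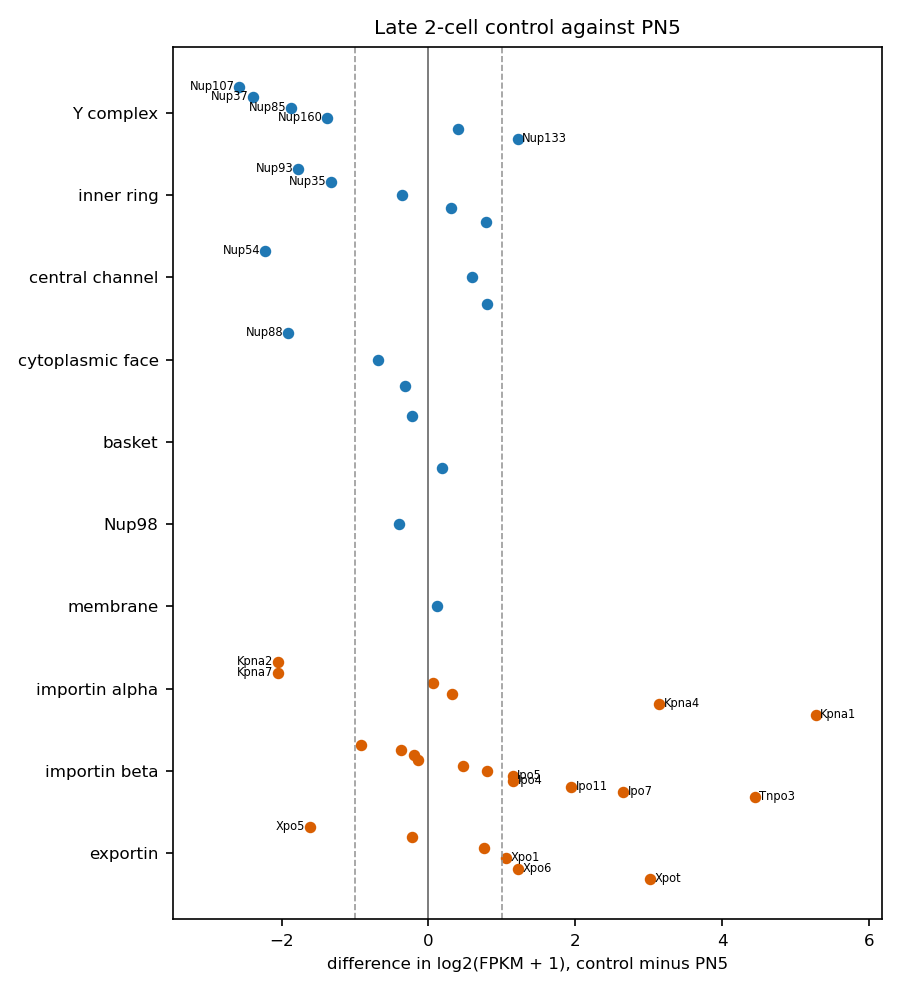
Difference in log2(FPKM + 1) between the late 2-cell control and PN5 for each of the 44 members (1 point each), by role, with nucleoporins in blue and receptors in orange. Dashed lines mark a difference of 1 in either direction. Of the nucleoporins 8 lie beyond the left line and 1 beyond the right line, and of the receptors 3 and 10.

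Early 2-cell embryos stood below MII for most members, as most genes did. Of 41 measured members 0 were higher and 11 lower, against 4.02% higher and 28.8% lower of all 10675 genes. The members' median was -0.69 and that of all genes -0.58. With the median log2 ratio over genes that reached 5 FPKM in both libraries, -0.57, set to 0, 3 members stayed lower: Nup43 (-1.66), Nup133 (-1.40) and Xpo1 (-1.06). The others lower before this scaling, Kpna2, Kpna3, Kpnb1, Nup107, Nup155, Nup205, Nup98 and Xpo4, were then within 2-fold. With this scaling the share of lower genes was 15.0% and of higher genes 8.60%.

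Zygotes at PN5 lay within 2-fold of MII eggs for most of these genes. Of 41 measured members 2 were higher and 1 lower, against 8.77% and 9.23% of all 10711 genes. Those higher were Kpna3 (1.32) and Nup37 (1.23), and Kpna2 was lower. The median log2 ratio on the same footing was 0.33. Once it was set to 0, Kpna3 was at 0.99 and Nup37 at 0.90, so that both were within 2-fold, and 3.22% of all genes were higher and 12.2% lower. The comparisons share libraries and are not independent. MII is in these 2, PN5 also in the late 2-cell control against PN5, and that control also in the DRB comparison.

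DRB-released embryos were then set against the control, which asks how levels stood after a temporary block of transcription. Of 44 members 0 were higher and 6 lower, or 13.6%, against 5.57% higher and 9.99% lower of all 13726 genes. The members' median was -0.39 and that of all genes -0.05. Below 0 lay 29 of 44 members and 7332 of 13726 genes. After median scaling 0 and 6 members were again higher and lower, against 6.61% and 8.57% of all genes. The 6 were Ipo4 (-2.38), Kpna1 (-1.43), Tnpo3 (-1.41), Nup43 (-1.27), Ipo7 (-1.15) and Nup93 (-1.10). The other 38 lay within 2-fold. Kpna6, at -0.96, passed the size rule when values were rescaled to equal sums (-1.02).

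The 11 importin beta family members had a median of -0.73, with 3 lower, and the 6 importin alpha genes -0.63, with 1 lower. Exportins had a median of -0.31 with 0 lower. The 21 nucleoporins had a median of -0.21, with 2 lower by the size rule. Of the 21, 9 lay above 0 and 12 below. The 9 were the 3 channel nucleoporins (0.07 to 0.21), Nup50 (0.11), Nup153 (0.32), Nup98 (0.18), Nup37 (0.64), Nupl2 (0.54) and Nup35 (0.15). The difference between nucleoporins and receptor families was not tested. Members with the highest levels in the control, Ipo8 (0.34), Nup62 (0.21) and Kpna3 (0.34), were slightly higher after DRB. Of the 11 members higher in the control than in PN5, 10 lay above PN5 and below the control in DRB-released embryos, with 20.1 FPKM for Kpna1, 15.8 for Tnpo3, 6.86 for Kpna4, 4.16 for Xpot and 18.8 for Ipo7. The exception was Ipo4, at 2.39 FPKM against 6.94 in PN5. These 11 were picked for high values in the same control library, which in advance favours lower values in any library set against it. The share of all genes with this order was not calculated, so the count is not a result about the members. Both comparisons use the same control library and are not independent. Kpna7 (-0.07) and Kpna2 (-0.45), lower in the control than in PN5, were within 2-fold.

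**Figure D5:**
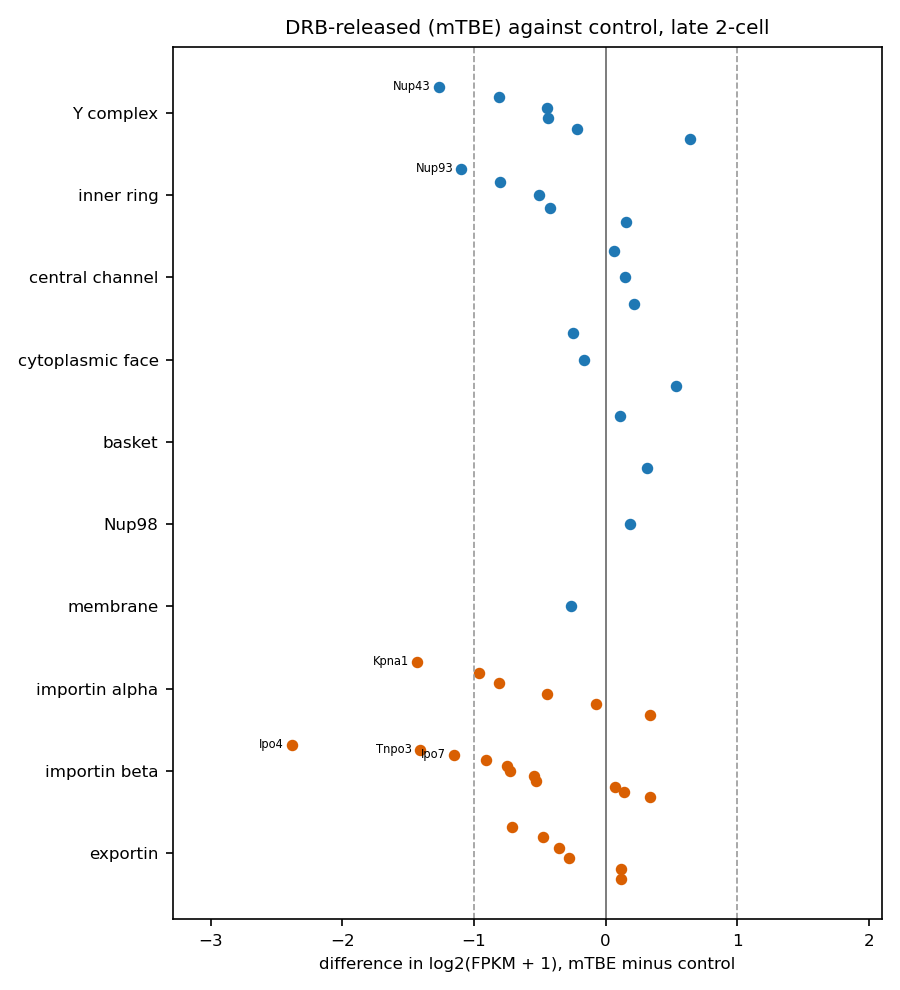
Difference in log2(FPKM + 1) between the DRB-released (mTBE) and the control late 2-cell library for each of the 44 members (1 point each), by role, with nucleoporins in blue and receptors in orange. Dashed lines mark a difference of 1 in either direction. The 6 labelled members lie at or below -1, and no member lies at 1 or above.

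The ICM pair, the only replicated group, shows how far members differ between replicates of 1 stage. By the same size rule 2 of 42 measured members, Nup62 and Tnpo2, were lower in replicate 2 and 0 were higher, against 2.79% and 2.31% of all 9983 genes. The members' median was -0.41 and that of all genes -0.20. Of the 42 measured members 41 were lower in replicate 2, as were 6713 of the 9983 genes. With the median ratio of -0.15 set to 0, again 2 were lower and 0 higher, against 1.87% and 3.09% of all genes. The members' median was then -0.29 and that of all genes -0.07. A members' median of about -0.39, as after DRB, thus also occurred between replicates, though in another protocol. The median of all genes was -0.05 after DRB and -0.20 between the replicates. By family, medians between the replicates were -0.56 for importin alpha, -0.48 for importin beta, -0.39 for exportins and -0.32 for nucleoporins. The receptor families thus lay below the nucleoporins between replicates too. Set beside the late 2-cell control, 27 of 44 members were lower in both ICM libraries and 13 higher in both, by any amount. Of the 13636 genes that reached 1 FPKM in any of these 3 libraries, 59.8% were lower and 34.9% higher, so the members' shares lay near those of all genes. These tables were normalized separately and stem from different protocols. Among those higher were Kpna2, Nup43, Nup37, Nup85 and Xpot, and among those lower Kpna7, Ipo8, Nup214, Nup62 and Nup98.

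Other genes of the pathway were taken from a list of 39, made up of pore proteins with other names, the Ran cycle, further receptors and mRNA export factors. In the control against PN5, 10 of 36 measured were higher and 3 lower, against 30.5% and 17.0% of all genes. After median scaling these were 12 and 3, against 33.2% and 15.0%. Rangap1, which activates the GTPase of Ran, stood at 2.91 FPKM at PN5 and 28.9 in the control, and Nup62cl was listed at 0 and was at 3.96. Thoc6 was at 21.4 and 4.17, and the mRNA export factor Rae1 at 79.2 and 17.7. After DRB 0 of 37 were higher and 7 lower, with a median of -0.19, against 5.57% and 9.99% of all genes and their median of -0.05. With median scaling 1 was higher and 7 lower, against 6.61% and 8.57% of all genes. The higher one was Nup62cl (1.04), at 3.96 FPKM in the control and 8.61 in DRB-released embryos. Snupn, the import adaptor of spliceosomal snRNPs, was at 20.7 FPKM in the control and 5.12 in DRB-released embryos, and Thoc5 of the mRNA export complex THO at 27.8 and 7.13. Rangap1 (28.9 and 9.83) was lower as well, and Ran itself (17.3 and 15.3) lay within 2-fold.

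Between MII and early 2-cell embryos 0 of 36 listed genes were higher and 14 lower, against 4.02% and 28.8% of all genes. After median scaling 1 was higher and 9 lower, against 8.60% and 15.0%. Nxt1, the cofactor of the mRNA exporter Nxf1, was at 28.8 and 3.96 FPKM, and the membrane nucleoporin gene Ndc1 at 17.6 and 2.31. Between MII and PN5, 2 were higher and 5 lower of 36, against 8.77% and 9.23% of all genes. After median scaling these were 1 and 7, against 3.22% and 12.2%. Seh1l of the Y complex was at 7.89 and 26.2 FPKM, and Nxt2 at 1.11 and 3.85 (within 2-fold, at 0.95, after median scaling). Nutf2, the import receptor of Ran, was at 12.5 FPKM in MII, 0.280 in PN5 and 6.37 in early 2-cell embryos, and Sarnp at 7.16, 0.687 and 1.32. The dip of Nutf2 in PN5 has the same shape as that of Kpna2. PN5 is a single library, so any dip there falls in the same table. The cause of these dips was not tested.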

How the data were processed

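Per the file names, the authors deposited FPKM values for each gene symbol in 4 tables. CASAVA 1.8, Cufflinks 2.1.1, TopHat2 2.1.1 and the build mm9 are listed in the submitters' processing notes, which do not say which step made which table. How shared reads and strand were treated is not given in the sources used here, so overlapping and near-identical genes are uncertain. The MII column carries a name that a chromatin sample also bears, and it was taken as the RNA library its table is listed with. The late 2-cell column taken as mTBE is headed DRB. No value column was left without a sample (0), and 109 chromatin samples were not analysed here.

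Rows of a repeated symbol were summed. Differences were calculated on the log2(FPKM + 1) scale, which understates changes of low genes, with Python 3.11.15 and pandas 2.3.3, and the code was tested on simulated data. The depth of the 5 total RNA libraries is unknown, because ratios of values below 0.3 FPKM had no steps (at most 14 of 2247 genes shared 1 ratio). In the ICM 199 of 1972 lay at 1 ratio. Whether replicates come from separate embryos is not given.

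Members and lists were chosen with earlier results of these data known. Named were all importin alpha genes, the 3 members with the highest mean level in each other role, the 5 largest differences in each direction per comparison, and 2 per direction among the other pathway genes. Further members, among them Ipo5, Ipo11, Xpo5 and those listed with the counts, and Ran were named after their values were seen. Alternatives were a pseudocount of 0.1 FPKM, a filter of 5 FPKM or none, median scaling, rescaling to a sum of 1000000 and the highest of repeated rows.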

Additional observations from a re-analysis of the deposited data

How the results depend on the processing

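Counts of members moved by over 1.5 times only under rescaling, in the comparisons across separately normalized tables. Early 2-cell against MII, 3 members were lower after median scaling and 3 after rescaling to equal sums, against 11 as deposited, and the members' median was -0.18 and -0.31. PN5 against MII, 0 members were higher after median scaling and 1 after rescaling to equal sums, against 2 as deposited. Smaller shifts were 14 members lower, early 2-cell against MII, with a pseudocount of 0.1 FPKM, and, after rescaling to equal sums, 7 lower after DRB and 3 apart between the ICM libraries. Without Kpna2 in the sum, the Kpna7 share of importin alpha was 62.4% in MII, 43.6% in PN5, 65.8% in early 2-cell embryos, 11.8% in the late 2-cell control and 11.5% in DRB-released embryos. Leaving out 1 ICM library at a time, it ranged from 0% to 0.339%. Of 92 counts, medians and shares computed under the alternatives, 11 moved and 0 reversed direction. Only the medians could reverse, because counts and shares have no direction. Those with the highest of repeated rows could not move, since no member row is repeated. Among differences of named genes, 322 of those past 2-fold were recomputed, 18 came within 2-fold, all under a rescaling, and 0 reversed. Of 710 recomputed differences that had been within 2-fold, 18 passed it, some of them with a pseudocount of 0.1 FPKM. Filters cannot change a gene's difference, nor can the choice of rows for members, so these recomputations were fixed in advance. Early 2-cell against MII, 7 of 14 came within 2-fold under median scaling and 7 of 14 under equal sums. PN5 against MII, 3 of 7 and 1 of 7 did. No paired analysis was possible because each total RNA group is 1 library and the ICM is the only group with 2. With 1 library per group the differences have no replicate check, and the depth of the 5 total RNA libraries is unknown.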
